A study of Mus musculus with 4 samples.

Results

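The genes described here encode the receptors for glutamate, GABA and glycine, the fast excitatory and inhibitory transmitters of the cortex. They were taken as the protein-coding genes whose symbols name a subunit of an AMPA, NMDA, kainate, delta or metabotropic glutamate receptor, or of a GABA-A, GABA-B or glycine receptor. Of 52 such genes in the mouse annotation GENCODE M21, 40 were listed in at least 1 of the study's 2 tables, which together hold 19175 genes. The table of the stress pair listed 17 of them and that of the AAV pair listed 36, with 13 in both.

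RNA was taken from prelimbic tissue, part of the medial prefrontal cortex, of 8-week-old C57BL/6 mice, with 1 library in each of 4 groups. A control and a stress-susceptible library come from chronic social defeat, a stress model where a mouse repeatedly meets an aggressor and counts as susceptible if it later avoids contact. Both carry the same stress tag in the labels, so the handling of the control mice is unclear. The other libraries are from mice given an adeno-associated virus (AAV) for either GFP, a fluorescent protein, or CDYL, a chromatin corepressor. The sources used here do not give the promoter in the virus, the cells it reached, the stress history of these mice or how many mice made up a library.

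Levels are FPKM, a fragment number corrected for transcript length and library size, so genes can be compared within a table. Differences are log2(FPKM + 1) of the susceptible or AAV-CDYL library minus that of the control or AAV-GFP library. A gene is called higher or lower where this difference is at least 1.5-fold and FPKM reaches 1 in either library. With 1 library per group there is no spread between replicates, no test was made, and neighbours in any order of levels cannot be said to differ. In neither table did a gene with 2 values above 0 differ by less than 0.32 in log2 FPKM, so a receptor gene that is not listed has no value here and is not thereby shown to be alike.

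Glutamate acts on ion channels built of 4 subunits and on metabotropic receptors that signal through G proteins. AMPA receptors carry the fast current, NMDA receptors pass calcium when glutamate and a co-agonist bind a depolarized cell, and kainate and delta receptors tune transmission and synapse structure. GABA-A and glycine receptors are chloride channels of 5 subunits, and GABA-B receptors are G protein-coupled pairs. In the prefrontal cortex these receptors set the balance of excitation and inhibition.

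The sequence before the start site was examined for 3 receptor genes because CDYL is known to work with REST, a repressor of neuronal genes that binds a motif called RE1. Grm2 and Gria2 are shown for partial matches to that motif, and Gabra3 as the only receptor gene called lower in the susceptible library. The sequences are the 250 bases before the RefSeq start site, on the minus strand of GRCm38.p6 (mm10). Capitals mark exact matches to the left part of RE1 or to the first 7 bases of its right part.
Grm2: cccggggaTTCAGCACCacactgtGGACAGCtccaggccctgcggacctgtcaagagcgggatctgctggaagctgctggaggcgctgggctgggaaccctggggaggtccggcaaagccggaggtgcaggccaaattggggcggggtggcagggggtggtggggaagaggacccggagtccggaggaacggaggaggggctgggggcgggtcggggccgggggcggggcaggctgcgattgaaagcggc
Gria2: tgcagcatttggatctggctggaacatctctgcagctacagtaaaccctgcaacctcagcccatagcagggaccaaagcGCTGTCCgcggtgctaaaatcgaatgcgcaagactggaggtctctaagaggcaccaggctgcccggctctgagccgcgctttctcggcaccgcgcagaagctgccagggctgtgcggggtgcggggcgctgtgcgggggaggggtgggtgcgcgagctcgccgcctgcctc
Gabra3: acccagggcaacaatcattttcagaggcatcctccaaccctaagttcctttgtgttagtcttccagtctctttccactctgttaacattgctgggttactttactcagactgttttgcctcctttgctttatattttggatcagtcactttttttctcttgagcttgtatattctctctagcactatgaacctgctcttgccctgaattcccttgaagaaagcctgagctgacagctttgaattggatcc
These windows lie at chr9:106656110-106656359, chr3:80802836-80803085 and chrX:72656920-72657169. The full RE1 motif of 21 bases, searched on both strands, was in 1 of 32544 promoter windows of 300 bases (250 before and 50 after a start site) and in 0 of the 43 windows that matched 36 of the 52 receptor genes. Because this search allowed no differing letter and found almost no window at all, the 0 cannot show that receptor genes lack RE1 sites. Grin2a, Grin2b, Gria1 and Gria3 were among the genes without a window. An exact match to the left part of RE1, TTCAGCACC, was in 0.372% of all windows and, among the receptors, in Grm2 alone. The first 7 bases of its right part, GGACAGC, were in 6.59% of all windows and in 4 receptor windows, those of Glra2, Glrb, Gria2 and Grm2; in the first 3 they were the reverse complement. In Grm2 the left part and these 7 bases stood in the same direction with 7 bases between them, where the full motif has 2. In Gria2 the stretch agcGCTGTCCgcggtgctaaa is the reverse complement of the full motif with that spacing of 2, apart from 1 letter in each part. The cyclic AMP response element TGACGTCA was in 1.80% of all windows and in 0 of the receptor windows. These are letter matches, not measured binding.

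In the AAV-CDYL library every listed receptor gene that reached 1 FPKM lay below the AAV-GFP library, and the 16 unlisted receptor genes have no value. There were 29 such genes, all reaching 5 FPKM in AAV-GFP, and 15 of them were called lower and 0 higher. Of all 8047 listed genes past the floor, 14.4% were called lower, 31.3% higher and 46.6% lay below AAV-GFP. Of the protein-coding genes that reached 5 FPKM in AAV-GFP, a background added after seeing the data, 21.3% were called lower, 13.6% higher and 68.6% lay below. The receptor genes had a median difference of -0.65, ranging from -1.29 to -0.33, while the median over all listed genes past the floor was 0.30. With the 16 unlisted receptor genes placed at 0, the receptor median was -0.49.

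**Figure D1:**
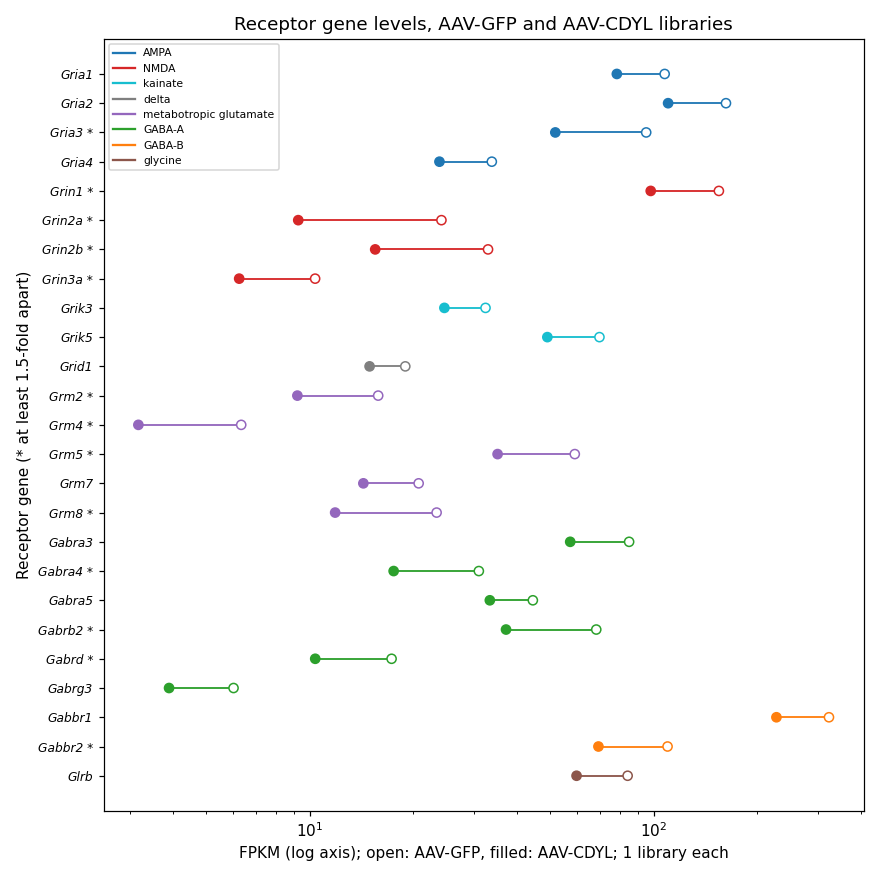
FPKM (log axis) of 25 of the 29 receptor genes past the floor in the AAV-GFP library (open) and the AAV-CDYL library (filled), coloured by receptor class, with a star at the 13 of them called lower. Every filled point lies left of its open point, with the widest gap at Grin2a (24.2 and 9.27).

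NMDA receptors were the class with the lowest median difference, -0.85, and all 4 listed genes of 7 were called lower. Of these, only Grin2a had a locus to itself, while Grin1, Grin2b and Grin3a each lay in a locus that the authors' software shared among 2 listed genes. Grin2a, one of the glutamate-binding GluN2 subunits that set how long the channel stays open (chromosome 16, 9567898 to 9995560), stood at 24.2 FPKM in AAV-GFP and 9.27 in AAV-CDYL, the lowest difference of any receptor gene at -1.29. Grin2b, the GluN2 subunit that dominates early in development (chromosome 6, 135713233 to 136173511), stood at 33.0 and 15.5. These were the only receptor genes whose difference passed 2-fold. Grin1, the obligatory subunit that binds the co-agonist (chromosome 2, 25291181 to 25319187), stood at 155 and 98.0, and Grin3a, a subunit that lowers calcium entry, at 10.4 and 6.24. The obligatory subunit was therefore less far below than its GluN2 partners: the ratio of Grin1 to Grin2a was 6.40 with AAV-GFP and 10.6 with AAV-CDYL, and that of Grin2b to Grin2a 1.37 and 1.67. In the authors' deposited table Grin2a has p = 0.0067 and q = 0.299. It is the only receptor gene there with p under 0.05, and 0.318% of all 15396 listed genes had such a p with a lower value (5.16% with a higher one).

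AMPA receptor genes were all listed and all below AAV-GFP, but only Gria3 passed 1.5-fold. Gria2, whose subunit makes the channel impermeable to calcium and whose upstream sequence is printed above (gene at chromosome 3, 80681450 to 80802835), was the most abundant at 162 FPKM in AAV-GFP and 110.1 in AAV-CDYL. Gria1, the subunit tied to activity-dependent insertion, stood at 108 and 78.1. Gria3 stood at 95.05 and 51.7, which is 1.84-fold lower, and Gria4 at 33.8 and 23.8. The order of the 4 genes was the same in both libraries. The share of Gria3 in their summed FPKM was 23.9% with AAV-GFP and 19.6% with AAV-CDYL, while Gria2 made up 40.7% and 41.7%.

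**Figure D2:**
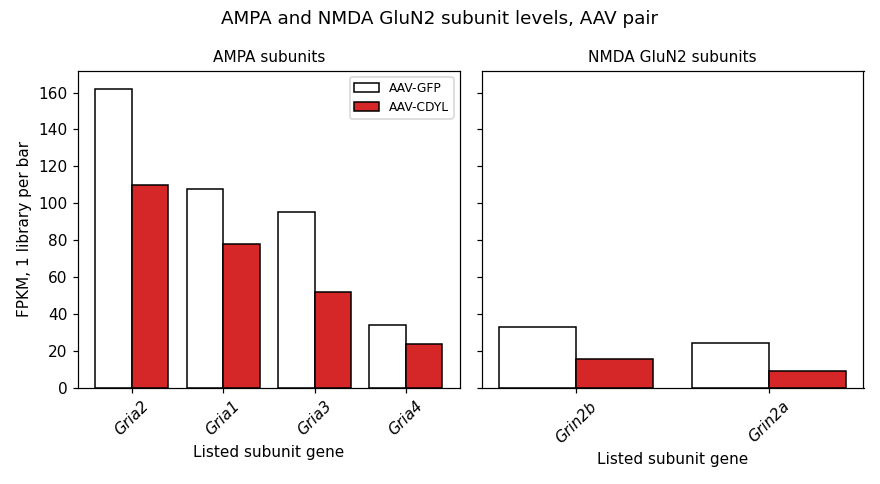
FPKM of the 4 AMPA receptor genes and the 2 listed GluN2 genes in the AAV-GFP library (white bars) and the AAV-CDYL library (red bars), 1 library per bar and no error. Each red bar is shorter than its white neighbour, and in both families the order of the subunits is the same in both libraries.

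Kainate and delta receptor genes had the class medians nearest 0 (-0.44 and -0.33), and 0 of 3 were called. Grik5, a high-affinity kainate subunit, stood at 69.5 FPKM in AAV-GFP and 49.1 in AAV-CDYL, and Grik3, a low-affinity one, at 32.4 and 24.6. Grid1, which binds cerebellin bridges to presynaptic neurexins rather than carrying a glutamate current, stood at 19.0 and 14.9 and was the receptor gene past the floor nearest to 0 (-0.33). The other kainate genes Grik1, Grik2 and Grik4 were listed in neither table.

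Metabotropic glutamate receptors were called lower for 5 of 6 listed genes of 8, with a median difference of -0.72. Of those called, Grm2, Grm5 and Grm8 lay in loci shared with other listed genes. Grm5, a postsynaptic receptor coupled to calcium release, was the most abundant at 58.9 FPKM in AAV-GFP and 35.2 in AAV-CDYL. Grm2, an autoreceptor that damps glutamate release and whose upstream window holds the left part of RE1 and the first 7 bases of the right part, stood at 15.8 and 9.21 (chromosome 9, 106643095 to 106656082). Its difference of -0.72 and that of Grm5 (-0.73) are the middle values of the 6 listed genes, so its closeness to the class median is built in. The group III receptors, which also sit at terminals, were spread more widely. Grm8 stood at 23.4 and 11.9 and Grm4 at 6.33 and 3.18, close to 2-fold lower, while Grm7 stood at 20.7 and 14.3 and was not called. Grm3 and Grm6 were listed in neither table.

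GABA-A receptor genes listed and past the floor, 9 of 19, were all below AAV-GFP with a median difference of -0.58, and 4 were called lower. Among the alpha subunits, which form the binding sites for GABA and for benzodiazepines, Gabra3 stood at 84.8 and 57.2 FPKM and Gabra5, which is prominent outside synapses, at 44.5 and 33.4, and neither was called. Gabra4, an alpha subunit that pairs with the delta subunit, stood at 31.0 and 17.5 and was called. The beta subunit gene Gabrb2, whose product helps to form the GABA binding site, was called at 68.1 and 37.2. Gabrd, the delta subunit of extrasynaptic receptors with tonic currents, was called at 17.3 and 10.4, while the gamma subunit gene Gabrg3 stood at 6.01 and 3.90 and was not. Over all receptor classes, Grin3a (-0.651) and Grin1 (-0.653) were the genes nearest inside the limit of -0.585, and of the genes named here Gabra3 (-0.560) and Gria2 (-0.554) were nearest outside it.

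GABA-B and glycine receptors followed the same direction. Gabbr1, which binds GABA, was the most abundant receptor gene in the AAV table at 323 FPKM in AAV-GFP and 227 in AAV-CDYL. Its partner Gabbr2, which couples to the G protein, stood at 109.7 and 69.1 and was called lower. Glrb, the glycine receptor subunit that binds the scaffold gephyrin, stood at 84.0 and 59.6. The listed glycine-binding alpha subunits did not reach 1 FPKM: Glra1 stood at 0.193 and 0.109, and Glra4 was listed at 0 and 0.0247. Glra2 and Glra3 were listed in neither table, so their levels are not known. The remaining receptor genes listed here lay under the floor. Gabre stood at 0.0741 and 0.182, Gabrq at 0.333 and 0.448, and Gabrr2 at 0.0929 and 0.294, and the rho genes Gabrr1 and Gabrr3 were listed at 0 with AAV-GFP and under 0.06 with AAV-CDYL. Of the 7 genes under the floor, Glra1 alone lay below AAV-GFP.

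Many GABA-A genes sit in clusters of several subunits. On chromosome X (72255999 to 72842602) Gabra3 stood at 84.8 and 57.2 FPKM between Gabre and Gabrq, which were under 0.5. Of the chromosome 5 cluster (70751047 to 72149037) only Gabra4 was listed in the AAV table, in a locus that the authors' software shared among 3 listed genes. Gabra5 also lies in a locus of 3 listed genes, and fragments of overlapping genes cannot be assigned with certainty.

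Neuronal marker genes were lower in the AAV-CDYL library by about as much as the receptor genes. All 13 listed pan-neuronal markers of 18 were below AAV-GFP, 7 were called lower, the median difference was -0.59, and their summed FPKM was 6369 with AAV-GFP and 4215 with AAV-CDYL, with none at 0. The summed FPKM of the listed receptor genes was 2021 and 1315, a ratio of 0.651 beside 0.662 for the markers. Of the 29 receptor genes, 24 lay within the range of the neuronal markers (-0.99 to -0.41). Grin2a and Grin2b lay below that range, and Gabra5, Grik3 and Grid1 above it. Relative to the neuronal median, an alternative added after seeing the data, only Grin2a was still called lower and the receptor median was -0.06. FPKM is relative to library size. Fewer neurons, less RNA per neuron and more RNA from other cells therefore cannot be told apart in bulk tissue.

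**Figure D3:**
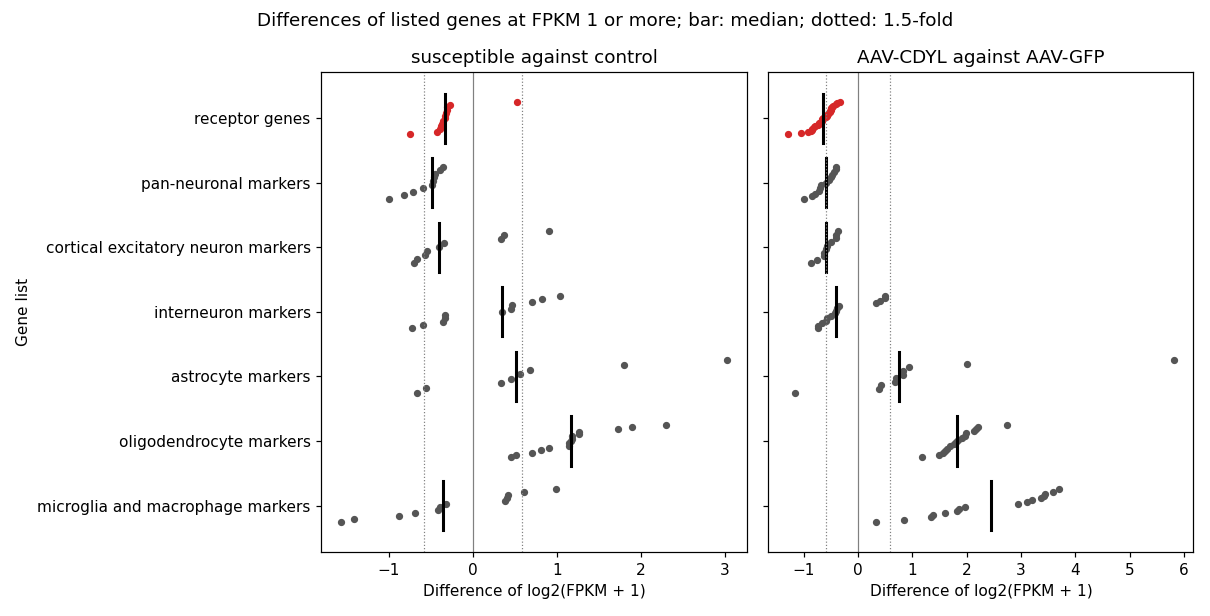
Difference of log2(FPKM + 1) for the listed genes past the floor in the receptor set (red) and in 6 marker lists (grey), stress pair on the left and AAV pair on the right; black bars are medians and dotted lines mark 1.5-fold. In the AAV pair the receptor genes (median -0.65) and pan-neuronal markers (-0.59) overlap, while oligodendrocyte (1.83) and microglia and macrophage markers (2.46) lie to the right.

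Markers of other cell types moved the other way in the same library. Summed FPKM over 17 oligodendrocyte markers was 715 with AAV-GFP and 2836 with AAV-CDYL, with 16 of 16 past the floor called higher. For microglia and macrophages it was 273 and 2046 (15 of 16 higher), for 10 listed astrocyte markers 301 and 845 (7 higher, 1 lower), and for leukocytes 2.79 and 1533 (12 of 12 higher). Single genes dominate the last 2 sums with AAV-CDYL. Most of the leukocyte sum was the antibody gene Igkc (0 and 1407), followed by Jchain (0.183 and 77.6) and Ptprc (0.553 and 11.6). Most of the rise in the astrocyte sum was Gfap (5.85 and 386). Of the leukocyte list, 7 genes were at 0 with AAV-GFP, among them Cd3d, Cd3g, Cd79a, Cd8a, Igkc and Nkg7. Of the 12 leukocyte genes past the floor, 11 entered only through their AAV-CDYL value, which fixes their direction. The counts called in these lists stand beside 31.3% higher and 14.4% lower over all listed genes past the floor. The part of these cells in the lower receptor levels was not tested. Cortical excitatory neuron markers had a median of -0.58, with Slc17a7, the vesicular glutamate transporter of cortical pyramidal cells, at 803 and 568, and interneuron markers one of -0.41. Cdyl stood at 2.68 and 1052 FPKM, in the direction of the label.

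Genes for partner proteins of the receptors lay mostly below AAV-GFP too, with exceptions. Of all listed genes past the floor, 14.4% were called lower and 31.3% higher. In a list of scaffolds, kinases and co-agonist genes of NMDA receptors, all 16 past the floor were below AAV-GFP and 8 were called lower, led by the scaffolds Shank1 (127 and 62.2 FPKM), Dlgap3 (116 and 58.5) and Shank3 (40.2 and 20.4). Partners of kainate, delta and metabotropic receptors were called lower for 9 of 15 and higher for 1. The largest differences were those of Homer1, a scaffold that links Grm5 to calcium stores (109 and 37.2), Homer3 (2.98 and 8.29, higher) and Grasp, also called tamalin (28.5 and 13.5). AMPA receptor auxiliary and trafficking genes were called lower for 5 of 17 and higher for 2. Frrs1l, needed to assemble AMPA receptors, stood at 90.6 and 47.7, while the auxiliary subunit gene Shisa6 stood at 1.79 and 12.8 and Cacng5 at 1.39 and 4.51. Scaffolds and partners of inhibitory receptors had the median nearest 0 of these 4 lists, with 2 of 12 called lower and 0 higher and a median of -0.45. Their share called lower, 16.7%, was near that of all genes, and 4 of the 12 lay above AAV-GFP. Kctd16, an auxiliary subunit of GABA-B receptors, stood at 11.3 and 5.18 and the synaptogenic Slitrk3 at 16.8 and 10.6.

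In the susceptible library the receptor genes were slightly below control, and 1 of 13 past the floor was called lower and 0 higher. Of all 5334 listed genes past the floor, 10.8% were called lower, 18.9% higher and 47.7% lay below control, so the share of receptor genes called lower (7.69%) did not exceed that of all genes. The median difference of the receptor genes was -0.34, and 12 of the 13 lay below control. Among protein-coding genes at 5 FPKM or more in control, 65.9% lay below, 13.5% were called lower and 8.64% higher, and their median of -0.35 was near that of the 11 receptor genes at that level (-0.36). The receptor genes not listed in this table number 35, and they include Grin1, Grin2b and Gria1 to Gria3.

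**Figure D4:**
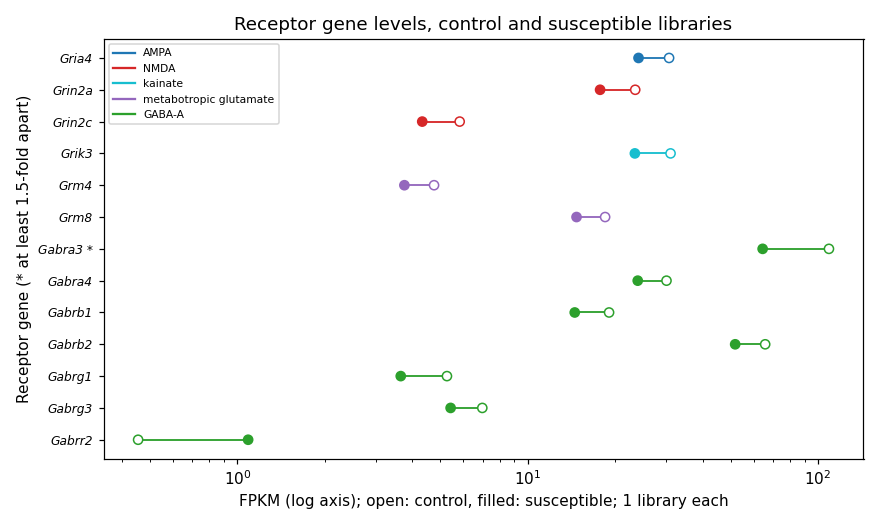
FPKM (log axis) of the 13 receptor genes past the floor in the control library (open) and the susceptible library (filled), coloured by receptor class, with a star at the gene called lower. Gabra3 (109 and 64.4) shows the widest leftward gap, and Gabrr2 (0.455 and 1.09) is the single gene that lies to the right.

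Gabra3, the alpha subunit gene whose upstream sequence is printed above (chromosome X, 72432681 to 72656848), had 109 FPKM in the control library and 64.4 in the susceptible one, 1.69-fold lower. From depth and transcript length these values rest on roughly 5688 and 5472 fragments, which gives a ratio of susceptible to control between 0.569 and 0.613 by counting error alone. In the authors' deposited table it has p = 0.116 and q = 0.999, and 0 receptor genes there have p under 0.05, while 1.22% of all listed genes have such a p with a lower value and 3.12% with a higher one. Its locus there is shared by 2 listed genes, and without genes in shared loci 0 of 8 receptor genes were called.

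The other receptor genes past the floor in the stress pair lay between 1.25-fold and 1.44-fold below control, apart from Gabrr2. Among glutamate receptors, Grin2a stood at 23.4 in control and 17.7 in susceptible, and Grin2c, a GluN2 subunit found largely in cerebellum and glia, at 5.83 and 4.33. Gria4 stood at 30.7 and 24.1, Grik3 at 31.0 and 23.4, Grm8 at 18.5 and 14.7 and Grm4 at 4.76 and 3.76. No glutamate receptor gene was called. Among GABA-A genes, Gabrb2 stood at 65.7 and 51.8, Gabra4 at 30.05 and 23.9, and Gabrb1 at 19.1 and 14.5. The less abundant gamma subunits Gabrg3 and Gabrg1 stood at 6.97 and 5.42 and at 5.27 and 3.65. Gabrr2, a rho subunit best known from retina, stood at 0.455 and 1.09, so it entered through its susceptible value, which fixes its direction. It rests on about 13 and 49 fragments, a ratio between 1.24 and 4.65 by counting error alone. Gabre, Gabrr1, Glra4 and Grin3b were listed under 0.1 FPKM in both libraries.

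Pan-neuronal markers were further below control than the receptor genes: all 10 listed were below, 4 were called lower, and the median was -0.48, with summed FPKM of 3660 and 2624. Of the 13 receptor genes, 6 lay within the range of these markers (-0.998 to -0.356) and 7 above it. Relative to the neuronal median, the receptor median was 0.15 and only Gabra3 remained below 0. Oligodendrocyte markers summed to 669 and 1707 FPKM, with 13 of 15 past the floor called higher, and their part in the receptor values was not tested. Striatal neuron markers were called higher for 8 of 10 (median 0.92, summed FPKM 79.7 and 135), and endothelial and mural markers for 6 of 12 (87.9 and 240). Of these genes, 3 striatal and 1 endothelial or mural entered only through their susceptible value, which fixes their direction. Interneuron markers had a median of 0.35, with 3 of 11 called higher and 2 lower, which is 27.3% and 18.2%. For each list here the comparison is all listed genes past the floor, of which 18.9% were called higher and 10.8% lower. Excitatory neuron markers had a median of -0.41, with 6 of 9 below control, 2 called lower and 1 higher. Neurod6 was at 87.1 and 53.3 and Cux2, the one called higher, at 9.45 and 18.6. The part of these lists in the receptor values was not tested either.

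Receptor partners in the stress pair were led by the kainate, delta and metabotropic list, where 4 of 6 past the floor were called lower and 0 higher. Over all listed genes past the floor, 10.8% were called lower and 18.9% higher. Homer1 had 101 FPKM in the control library and 45.1 in the susceptible one, Elfn1, a postsynaptic protein that recruits group III metabotropic receptors, at 21.8 and 11.6, and Cbln2, a cerebellin that binds delta receptors, at 27.0 and 14.7. The NMDA receptor list had 1 of 5 called lower, Slc7a10, a carrier of D-serine that is also among the astrocyte markers (11.9 and 7.08). In the AMPA auxiliary list 1 of 7 was called, Shisa6, which was higher (1.51 and 3.82), and in the inhibitory list 0 of 5 were called in either direction. Shisa6 shares its locus with other listed genes in both tables.

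For 9 receptor genes past the floor in both tables, the differences can be set side by side, since the pairs share no library. All 9 were below the first library in both pairs, and in 7 the AAV difference was the lower one. Among protein-coding genes at 5 FPKM or more in the first library, 65.9% lay below in the stress pair and 68.6% in the AAV pair. The share of all genes below in both pairs is not given here. Grin2a differed by -0.38 in the stress pair and -1.29 in the AAV pair, Grm8 by -0.31 and -0.92, Grm4 by -0.27 and -0.81, and Gabrb2 by -0.34 and -0.85. Gabra4 differed by -0.32 and -0.79. The exceptions were Gabra3, at -0.75 and -0.56, and Grik3, at -0.39 and -0.38. Starting levels were alike across tables that were normalized separately: in 8 of the 9 genes control and AAV-GFP were within 1.3-fold of each other, as for Grin2a (23.4 and 24.2). Across the 9 genes the sizes had a Pearson's r of -0.22 and a Spearman's rho of -0.25, a description over genes from the same libraries. Apart from Gabra3, the stress differences ran only from -0.27 to -0.39, near the smallest listed difference of 0.32 in log2 FPKM. With so narrow a range these coefficients cannot show whether the sizes go together.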

How the data were processed

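The authors deposited 1 table per pair with FPKM per library and the p-values and q-values of their own comparison, and the deposited p-values and q-values are printed only as theirs. Cuffdiff and mm10 are named per the submitters' processing notes; which aligner, gene models and software versions were used is not given in the sources used here. Per the labels' protocols, a NEBNext Ultra kit and 1 µg of total RNA went into each library; overlapping genes on opposite strands may share fragments. Differences, counts and medians were computed with Python 3.11.15, numpy 2.4.6, pandas 2.3.3 and scipy 1.17.1, with a pseudocount of 1 and a floor of 1 FPKM in either library, and tested on simulated data. The steps between low values of genes with 1 transcript of 3 to 20 kb gave an effective depth between 14250000 fragments (control, where the first solution gave even steps only and was divided by 2) and 23900000 (AAV-CDYL). Of the values below 4.5 steps, 92.4% or more were whole within 0.15. Fragment numbers of genes use the longest transcript and are approximate, and their 95% Clopper-Pearson intervals cover counting error only. Positions are those of the files. Promoter sequences are RefSeq's for GRCm38.p6. Receptor genes are given by class, and of each other list those with the largest differences; some genes that enter the counts and medians are not reported here by name. The receptor set and the lists were chosen with earlier results of these data known. 0 per-sample columns were left unmapped.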

Additional observations from a re-analysis of the deposited data

How the results depend on the processing

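In the AAV pair, 15 receptor genes called lower became 29 after centring on the median of all genes (0.30), 2 with a 2-fold rule, and 1 and 0 by the authors' p and q under 0.05. Among settings chosen after seeing the data, 1 was called lower after centring on pan-neuronal markers, where the median became -0.057, and 7 of 17 without genes in shared loci. In the stress pair, the 1 gene called lower became 6 after median centring (0.24; receptor median -0.58). It became 0 with a 2-fold rule, by the authors' p and q, relative to neuronal markers (median reversed to 0.15) and without shared loci; 1 gene was called higher with pseudocounts of 0.1 and 0.5 and relative to neuronal markers. With unlisted genes at 0 the stress median was 0. Pseudocounts, floors and a common upper quartile left the sign of both medians as it was. No paired analysis was possible because each group has 1 library, and for the same reason no replicate could be left out. Depth limits the genes under the floor, such as Gabre, with about 7 fragments with AAV-GFP.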

Other observations

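Genes for the supply and removal of the transmitters lay on both sides of AAV-GFP: 4 of 17 past the floor were called lower, 4 were called higher, and their median difference was -0.40. That is 23.5% each way, beside 14.4% lower and 31.3% higher over all listed genes past the floor. The glial carriers Slc38a3, which releases glutamine, and Slc1a3, which takes up glutamate, were both called higher, at 17.6 FPKM in AAV-GFP and 35.3 in AAV-CDYL and at 93.2 and 152. The carriers that set the chloride gradient for GABA-A receptors lay on opposite sides. Slc12a5 (KCC2), the neuronal chloride exporter, stood at 133 and 78.1, and Slc12a2 (NKCC1), the importer that glia also express, at 7.38 and 14.1. The part of cell composition in these values was not tested. In the stress pair Slc12a2 stood at 6.36 and 8.57, under 1.5-fold, and Slc12a5 was not listed. The vesicular glutamate transporter gene Slc17a8 (2.49 and 1.14) was the 1 supply gene of 7 called lower there, with 0 higher. That share of 14.3% lower was near the 10.8% of all listed genes past the floor in the stress pair, of which 18.9% were higher.

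Within the receptor genes of the AAV pair, the difference had a Spearman's rho of 0.13 with log2(FPKM + 1) in AAV-GFP and of -0.12 with the length of the gene on the chromosome, over 29 genes that share both libraries. With the longest transcript of the gene, Pearson's r was -0.47 and rho -0.17, and Grin2a and Grin2b, the 2 genes with the lowest differences, have longest transcripts of 14.6 and 24.1 kb, the longest of the 29. In the stress pair rho with the control level was -0.53 over 13 genes, which include Gabrr2, the least abundant and the only one above control. In both pairs the level of the first library is also subtracted in the difference, which by itself can pull such a coefficient below 0.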
